A study of Mus musculus with 36 samples.

Results

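The genes described here are the interferon response genes of the mouse, a list of 44 symbols that cells switch on when they sense an interferon. The symbols were looked up by their GENCODE M21 names among the 55487 genes of the deposited count table, and a gene was to be dropped if its mean was under 0.2 CPM in every group. CPM are the reads of a gene per 1 M reads of its library. Library sizes were scaled by trimmed means (TMM), except for this rule and the 2 values given with it here. All 44 of 44 genes were kept. The nearest to the limit were Oas3, with a highest group mean of 1.08 CPM, and Ifi44, with 2.16 CPM.

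They were measured by RNA sequencing in 36 libraries of female mice, from dorsal root ganglion (DRG), which holds the cell bodies of sensory neurons, and from dorsal spinal cord, where those neurons end. Each tissue had 4 libraries of knockout (KO) mice after spared nerve injury (SNI), 4 of wild-type (WT) mice after SNI, 5 of naive KO mice and 5 of naive WT mice. In SNI some branches of the sciatic nerve are cut and 1 is left intact, which makes the paw hypersensitive. The labels named no other allele and no drug, and gave no age, time after injury or pooling of animals. They did not say that each library came from its own animal, so the p-values measure the spread between libraries.

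Type I interferons bind the receptor Ifnar1 and Ifnar2, and kinases bound to it then activate a complex of transcription factors, Stat2 and Irf9 among them, that binds the interferon-stimulated response element (ISRE) in promoters. The genes so induced cut viral RNA, block its translation, tag proteins with Isg15, or feed back on the pathway, as Irf7 (forward) and Usp18 (restraint) do. In the nervous system microglia, macrophages, neurons and glia can all run this programme, and type I interferon is known to act on sensory neurons too.

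The libraries held between 21.34 and 27.27 M estimated reads each. Naive DRG libraries A2 and A4 were titled wild type, but their genotype field said knockout, as did their column names, and they were taken as KO libraries. The 5 sensory neuron markers summed to 1590 to 3165 CPM in DRG and 22.6 to 65.4 CPM in cord, and the 5 spinal neuron markers to 1.24 to 5.90 CPM in DRG and 859 to 1082 CPM in cord. Naive WT DRG library C1 stood apart by its blood cell markers (3436 CPM summed). In naive DRG the 5 blood markers summed to 189 to 599 CPM in KO and 721 to 3436 CPM in WT libraries.

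**Figure D1:**
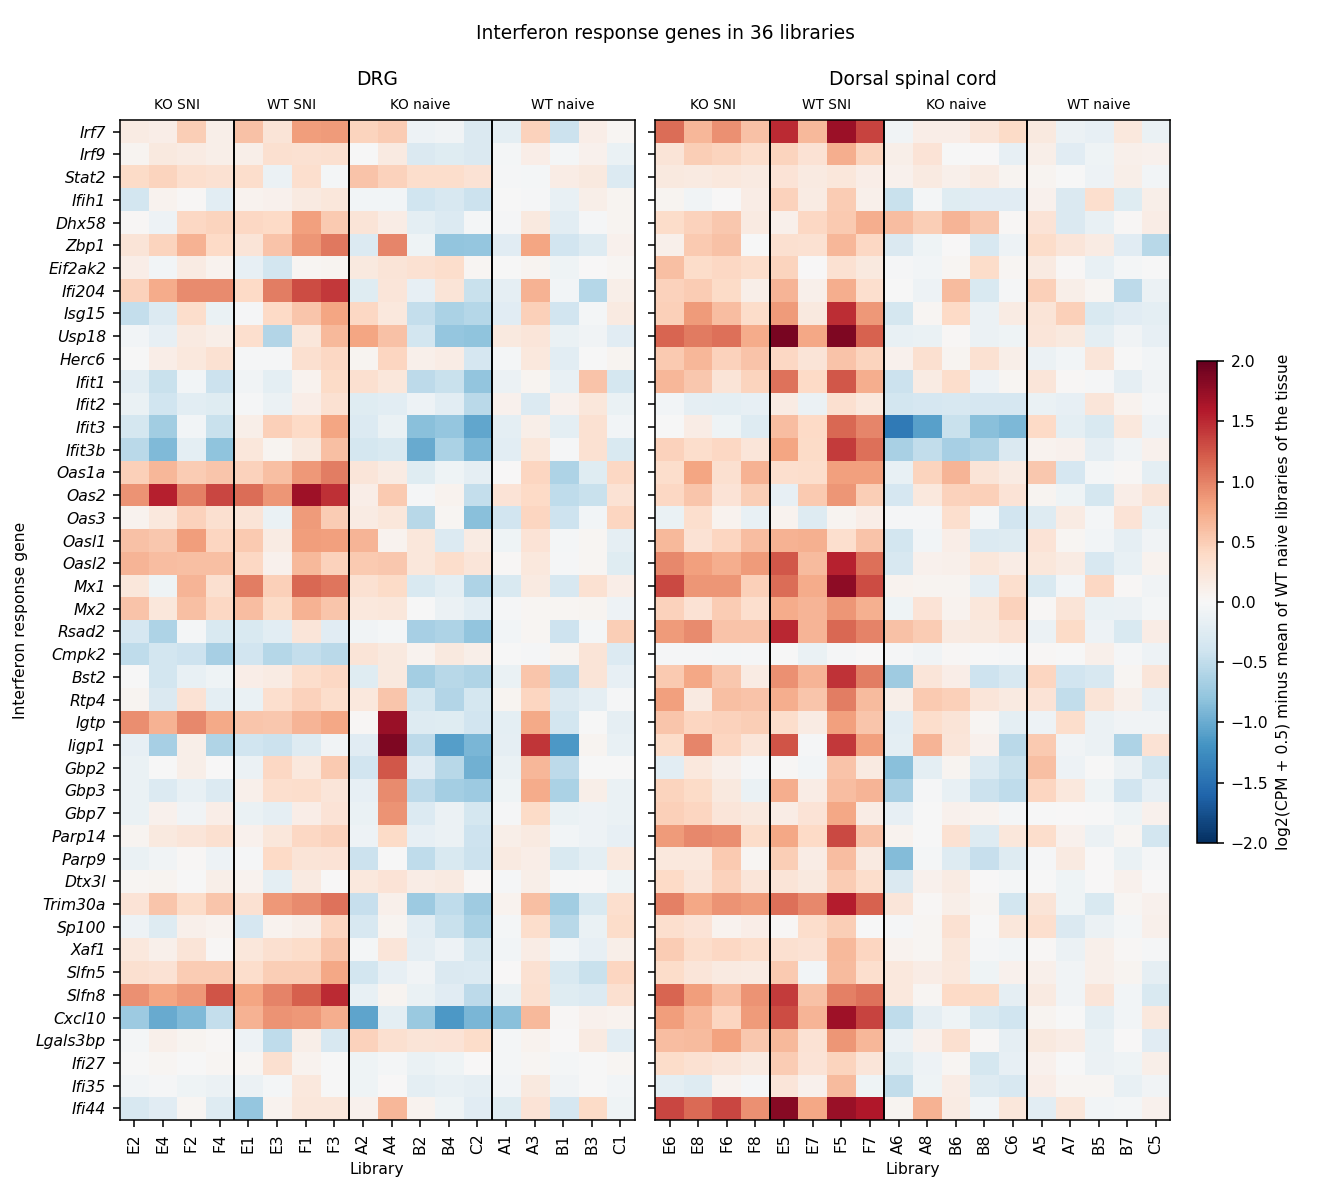
Each row is 1 of the 44 interferon response genes and each column 1 of the 36 libraries, grouped as KO SNI, WT SNI, KO naive and WT naive within DRG (left) and dorsal spinal cord (right). Colour is log2(CPM + 0.5) minus the mean of the naive WT libraries of that tissue, cut at 2 in either direction. Most rows are red in the 8 injured cord libraries, and in the 4 injured WT DRG libraries 28 to 42 of the 44 genes lie above the naive WT mean.

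The promoters were searched for the element through which the pathway acts. Of the 44, 32 had a promoter in the RefSeq table for build GRCm38.p6, which gives 250 bases before and 50 bases after each gene's start. The ISRE core, searched on both strands as GAAA, any 2 bases, GAAA, occurred in 19 of these 32 promoters (59.4%), against 3.44% of all 32851 promoters and 3.22% of the 17384 promoters of genes tested here. The gamma-activated site, searched likewise as TTC, any 3 bases, GAA, occurred in 7 of 32 (21.9%), against 8.3% of all promoters. A match is a run of letters, not a measured binding site. The following 6 promoters are shown because the results below turn on their genes, or, for Isg15, because it had the most matches (3, overlapping each other). Capitals mark the ISRE core on either strand, so TTTC, 2 bases, TTTC is the core read on the other strand.

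Isg15: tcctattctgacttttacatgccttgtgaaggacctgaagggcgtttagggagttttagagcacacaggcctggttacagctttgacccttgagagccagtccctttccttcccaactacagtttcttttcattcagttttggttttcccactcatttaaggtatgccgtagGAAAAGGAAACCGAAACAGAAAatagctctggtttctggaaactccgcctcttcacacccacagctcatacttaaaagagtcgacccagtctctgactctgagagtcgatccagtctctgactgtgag
Trim30a: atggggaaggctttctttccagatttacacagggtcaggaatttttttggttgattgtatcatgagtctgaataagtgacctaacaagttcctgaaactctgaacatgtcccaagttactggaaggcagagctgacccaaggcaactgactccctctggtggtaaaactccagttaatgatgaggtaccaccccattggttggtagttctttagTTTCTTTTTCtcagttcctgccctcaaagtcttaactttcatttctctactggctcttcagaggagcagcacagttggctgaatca
Slfn8: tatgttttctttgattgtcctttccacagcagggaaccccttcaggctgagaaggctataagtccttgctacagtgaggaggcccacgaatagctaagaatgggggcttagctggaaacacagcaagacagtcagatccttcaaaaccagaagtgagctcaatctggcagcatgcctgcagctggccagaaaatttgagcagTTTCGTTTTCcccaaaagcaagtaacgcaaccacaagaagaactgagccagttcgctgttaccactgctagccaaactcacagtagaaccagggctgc
Cxcl10: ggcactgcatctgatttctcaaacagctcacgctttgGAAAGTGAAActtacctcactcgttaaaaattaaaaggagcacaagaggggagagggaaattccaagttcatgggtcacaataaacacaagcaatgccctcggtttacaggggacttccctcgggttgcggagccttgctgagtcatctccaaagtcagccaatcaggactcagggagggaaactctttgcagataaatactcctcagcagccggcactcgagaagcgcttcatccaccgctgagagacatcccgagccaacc
Ifit3: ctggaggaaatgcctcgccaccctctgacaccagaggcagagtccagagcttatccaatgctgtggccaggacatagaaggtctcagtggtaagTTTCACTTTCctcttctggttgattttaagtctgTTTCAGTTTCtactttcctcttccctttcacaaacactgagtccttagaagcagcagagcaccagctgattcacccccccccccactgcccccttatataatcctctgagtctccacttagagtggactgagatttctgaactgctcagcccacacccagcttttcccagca
Ifit3b: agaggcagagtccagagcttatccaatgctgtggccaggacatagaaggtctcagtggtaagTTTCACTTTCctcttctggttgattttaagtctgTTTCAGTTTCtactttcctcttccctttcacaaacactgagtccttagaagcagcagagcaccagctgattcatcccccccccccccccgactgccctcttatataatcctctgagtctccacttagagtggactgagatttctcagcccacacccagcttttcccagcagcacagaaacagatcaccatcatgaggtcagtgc

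Isg15 lies at chr4:156200769-156201068 on the minus strand in this window, Trim30a at chr7:104465144-104465443 (minus), Slfn8 at chr11:83020761-83021060 (minus), Cxcl10 at chr5:92348840-92349139 (minus), Ifit3 at chr19:34583279-34583578 (plus) and Ifit3b at chr19:34607707-34608006 (plus). The windows of Ifit3 and Ifit3b were 75% identical over 268 bases aligned without gaps, with the pair of matches kept in both. Without gaps, a stretch that differs in length puts the bases beyond it out of step, which can lower this share. The letters TTTCACTTTC and TTTCAGTTTC start 156 and 122 bases before the start of Ifit3, and 188 and 154 bases before that of Ifit3b.

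After nerve injury the interferon response genes rose together in the dorsal spinal cord of WT mice (4 SNI against 5 naive libraries). Of 43 genes tested, 25 rose and 0 fell at an adjusted p under 0.05 over all genes, where 2.61% of all 18843 genes tested rose and 0.271% fell. At an unadjusted p under 0.05, 37 were higher and 0 lower, and DESeq2 called 26 higher. The median log2 fold change of the 43 was 0.84, beside -0.01 over all genes. Oas3, at 0 to 0.326 CPM in cord, did not pass the filter on low counts. Zbp1, Ifi204, Oasl1, Mx1 and Cxcl10 passed it through the injured libraries alone, which favours genes that are high after injury. Of the other 38 genes 22 rose, and their median log2 fold change was 0.62.

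All 3 transcription factors of the list rose. Irf7, the factor that amplifies the response, had 3.67, 1.82, 4.37 and 3.3 CPM in the WT SNI cord libraries and 1.2, 0.872, 0.821, 1.21 and 0.852 CPM in the naive WT ones (log2 fold change 1.72 ± 0.22, adjusted p = 6.82e-06). The groups did not overlap, and library E7 was the lowest of the injured ones. Irf9 rose by 0.50 ± 0.10 and Stat2 by 0.20 ± 0.05, both on the log2 scale.

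The restraint on the pathway rose as well. Usp18, which removes Isg15 from proteins and silences the interferon receptor, had 4.55, 1.82, 4.46 and 2.57 CPM in the WT SNI cord libraries and 1.11, 1.06, 0.684, 0.79 and 0.718 CPM in naive WT cord (log2 fold change 1.93 ± 0.23, adjusted p = 3.21e-06). All 4 injured libraries lay above all 5 naive ones, with E7 again lowest. Isg15, the ubiquitin-like modifier itself, rose by 1.11 ± 0.27, and Herc6, which attaches it in mice, by 0.44 ± 0.09.

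Trim30a, a ubiquitin ligase known to restrain Toll-like receptor signalling, gave the lowest adjusted p of the 44 genes. Its levels were 5.2, 4.66, 7.42 and 5.52 CPM in the WT SNI cord libraries and 2.67, 2.02, 1.64, 2.25 and 2.33 CPM in naive WT cord (log2 fold change 1.38 ± 0.15, adjusted p = 9.63e-07). Ifi44, an interferon-induced gene whose product limits virus growth, had 2.83, 1.11, 2.6 and 2.35 CPM after SNI and 0.311, 0.596, 0.41, 0.416 and 0.493 CPM in naive WT cord (log2 fold change 2.30 ± 0.28, adjusted p = 3.21e-06). Neither gene overlapped between the groups, and E7 was the lowest injured library for both.

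The antiviral effectors rose in 5 of 6 cases. Mx1, a GTPase that blocks influenza virus, rose by 2.96 ± 0.48 (log2) to 0.836, 0.532, 1.63 and 1.03 CPM in WT SNI cord, against at most 0.319 CPM in naive WT cord. Mx1 was in the test only through its injured libraries, so this separation was favoured by the filter. Rsad2, or viperin, rose by 1.71 ± 0.26, Bst2, or tetherin, by 1.16 ± 0.23, Mx2 by 0.95 ± 0.16, and Rtp4 by 0.84 ± 0.18. Cmpk2, a mitochondrial nucleotide kinase and the neighbour of Rsad2 on chromosome 12, was the exception, with a log2 fold change of -0.04 ± 0.04 at 33.2 to 36.8 CPM after SNI and 34.0 to 39.4 CPM in naive WT cord. GENCODE M21 classes Mx2 as a polymorphic pseudogene, so its RNA level does not show a working protein.

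Of the IFIT family, proteins that bind foreign RNA, 3 of 4 rose: Ifit1 (1.02 ± 0.18), Ifit3b (1.01 ± 0.14) and Ifit3 (0.82 ± 0.19). Of 4 tested OAS genes, whose products sense double-stranded RNA, Oasl1 (1.38 ± 0.36) and Oasl2 (1.25 ± 0.16) rose. Slfn8 (1.40 ± 0.22) rose and Slfn5 (0.40) was not called. Parp14, Dtx3l and Xaf1 rose with Trim30a, by 0.35 to 0.87. The chemokine gene Cxcl10, which draws T cells through Cxcr3, rose by 2.31 ± 0.31 (adjusted p = 1.54e-05). Both Cxcl10 and Oasl1 passed the filter on low counts through the injured libraries alone.

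In WT cord 0 of the 5 sensors and nucleic acid binding genes and 0 of the 5 interferon-induced GTPases were called. At an unadjusted p under 0.05, though, 4 of 5 in either group were higher. Their log2 fold changes were all above 0, with medians of 0.59 and 0.55. The GTPase Igtp, which acts on vacuoles that hold parasites, missed the threshold by little (0.55 ± 0.16, adjusted p = 0.0608).

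**Figure D2:**
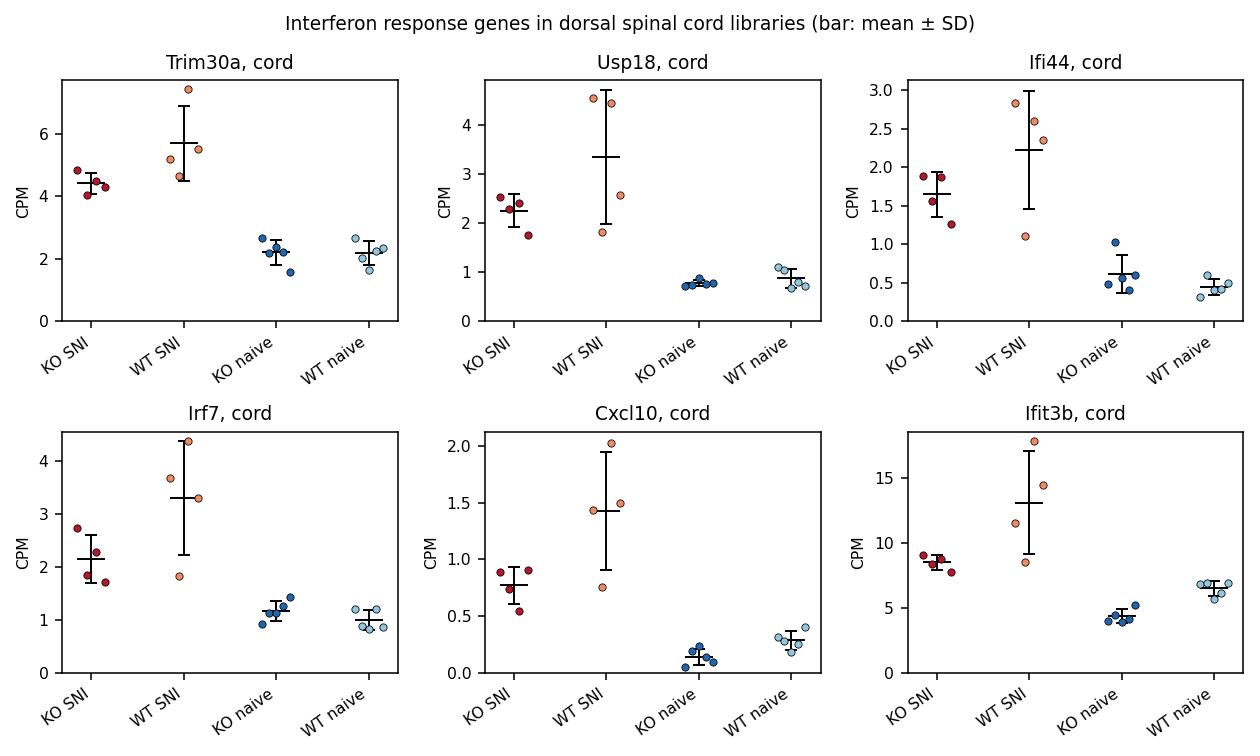
CPM of 6 interferon response genes in each dorsal spinal cord library, in the order KO SNI, WT SNI, KO naive and WT naive, with bars for the mean ± SD (n = 4 for SNI and 5 for naive groups). In all 6 panels both injured groups lie above both naive groups, and the WT SNI libraries are the most spread out, for example 1.82 to 4.55 CPM for Usp18. Cxcl10 passed the filter on low counts through the injured libraries alone.

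The same change was measured in KO cord, where 20 of 43 genes rose and 0 fell (background 3.79% and 0.626%), with a median of 0.52 beside -0.01 over all genes. Of the 38 genes that did not need the injured libraries to pass the filter, 17 rose, with a median of 0.42. The count rested in part on KO SNI library E6, without which it was 13. Both genotypes called 18 genes, which is 72% of the 25 called in WT and 90% of the 20 called in KO cord. Oasl1, Mx1 and Cxcl10, which passed the filter through injured libraries alone, were among the 18. The overlap over all genes was not counted, so these shares cannot be called particular to the list. The other 7 called in WT cord were Stat2, Isg15, Ifit1, Mx2, Rsad2, Bst2 and Rtp4, and the other 2 called in KO cord Eif2ak2 (0.36 ± 0.09) and Parp9 (0.68 ± 0.15).

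Cxcl10 had the lowest adjusted p in KO cord, but it passed the filter on low counts through the injured libraries alone. Its levels were 0.893, 0.735, 0.548 and 0.905 CPM in KO SNI cord and 0.0481, 0.186, 0.233, 0.134 and 0.0921 CPM in naive KO cord (log2 fold change 2.42 ± 0.38, adjusted p = 0.000117). Trim30a had 4.84, 4.04, 4.47 and 4.3 CPM in KO SNI cord and 2.65, 2.19, 2.38, 2.23 and 1.57 CPM in naive KO cord (log2 fold change 1.00 ± 0.16, adjusted p = 0.00012). For Trim30a every injured library lay above every naive one. The same held for Cxcl10, which was in the test only through its injured libraries. Usp18 had 2.54, 2.3, 2.42 and 1.76 CPM after SNI and 0.722, 0.746, 0.886, 0.758 and 0.783 CPM in naive KO cord (log2 fold change 1.52 ± 0.24, adjusted p = 0.00016). Ifit3b had 9.07, 8.41, 8.77 and 7.74 CPM after SNI and 3.94, 4.47, 3.92, 4.1 and 5.2 CPM in naive KO cord (log2 fold change 0.97 ± 0.15, adjusted p = 0.000247). These groups did not overlap either.

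Whether the genotypes differed in their response to injury was tested directly. In cord 0 genes of the list differed in either direction (background 0% of all genes each way). At an unadjusted p under 0.05, 0 were larger and 6 smaller in KO cord, and DESeq2 called 0. Those 6, singled out after their values were seen, were Rsad2 (-1.12 ± 0.38), Ifi44 (-0.89 ± 0.40), Irf7 (-0.85 ± 0.31), Dhx58 (-0.73 ± 0.28), Mx2 (-0.71 ± 0.23) and Rtp4 (-0.57 ± 0.26), with adjusted p of 0.737 to 0.796. For Irf7 the 95% interval of the difference ran from -1.47 to -0.24 and for Usp18 it ran from -1.08 to 0.26. A genotype effect on the rise was therefore not called, and equal rises were not shown.

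Markers of microglia and macrophages rose in the same libraries: 12 of 13 in either genotype, with medians of 1.15 in KO and 1.05 in WT cord. Their summed level was 605 to 633 CPM in KO SNI, 596 to 653 CPM in WT SNI, 232 to 269 CPM in naive KO and 267 to 312 CPM in naive WT cord, and none was at 0. Of 3 genes listed as markers of plasmacytoid dendritic cells, 2 rose in WT cord, Siglech and Bst2, which is itself a member of the list. Ccr9 was not called and lay the other way, with means of 0.332 CPM after SNI and 0.506 CPM in naive WT cord. The 3 summed to 24.1 to 29.0 CPM after SNI and 10.3 to 13.5 CPM in naive WT libraries. Most of that sum was Siglech, with means of 21.5 CPM after SNI and 9.1 CPM in naive WT cord. The 3 did not move together, so a change in these cells cannot be read from their sum. Of 5 satellite glia and astrocyte markers 2 rose, and of 5 spinal neuron markers 1 fell, in either genotype. The part of these cell types in the rise of the interferon genes was not tested. In pieces of tissue, more cells of a type and more RNA per cell cannot be told apart.

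In DRG fewer genes of the list changed. Of 44 genes 15 rose and 1 fell in WT DRG after SNI, where 12.6% of all 19496 genes tested rose and 12.3% fell. The median log2 fold change was 0.28, beside -0.01 over all genes. In KO DRG 9 rose and 1 fell (background 15.1% and 13.3%), with a median of 0.16 beside 0.01 over all genes. The 34.1% that rose in WT DRG thus stood above the background, and the 20.5% in KO DRG near it. All 9 were among the 15 called in WT DRG, 60% of those. WT cord and WT DRG shared 10 genes that rose, 40% of the cord's and 66.7% of the DRG's, with Oasl1, Mx1 and Cxcl10 among them. These overlaps were not counted over all genes either. Without library A4 the KO count was 14, and without A2 and A4 it was 19.

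Slfn8, a Schlafen gene of immune cells, had the lowest adjusted p of the genes that rose, in both genotypes. It had 5.39, 4.94, 5.19 and 6.98 CPM in KO SNI and 2.33, 2.75, 2.37, 2.17 and 1.69 CPM in naive KO DRG (log2 fold change 1.34 ± 0.19, adjusted p = 2.68e-05). In WT it had 4.94, 5.71, 6.7 and 8.3 CPM after SNI and 2.37, 3.4, 2.15, 2.09 and 3.42 CPM in naive DRG (log2 fold change 1.26 ± 0.18, adjusted p = 4.44e-05). Every injured library lay above every naive one in either genotype.

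Oas2, which makes the 2-5A messenger that activates RNase L, had 4.25, 7.02, 4.61 and 5.91 CPM in KO SNI and 2.29, 3.15, 2.01, 2.17 and 1.32 CPM in naive KO DRG (log2 fold change 1.34 ± 0.27, adjusted p = 0.000825). It had 5.02, 4.2, 7.72 and 6.48 CPM in WT SNI and 2.58, 2.84, 1.29, 1.37 and 2.63 CPM in naive WT DRG (log2 fold change 1.46 ± 0.26, adjusted p = 0.000388). The groups did not overlap. With Oas2, Oas1a, Oasl1 and Oasl2 rose, so that 4 of 5 OAS genes were called in WT and 3 of 5 in KO DRG. In cord Oas2 (0.90 ± 0.36 in WT, 0.33 ± 0.35 in KO) and Oas1a (0.97 ± 0.32 in WT, 0.39 ± 0.31 in KO) were not called, and the direct test of DRG against cord in WT called neither (adjusted p = 0.551 for Oas2 and 0.846 for Oas1a).

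Mx2 had 7.55, 6.38, 8.03 and 7.22 CPM in WT SNI and 4.7, 4.92, 4.9, 4.95 and 4.39 CPM in naive WT DRG (log2 fold change 0.62 ± 0.11, adjusted p = 0.000368). Slfn5 had 30.9, 30.3, 35.4 and 35.4 CPM in KO SNI and 19, 22, 23.6, 20.1 and 20.4 CPM in naive KO DRG (log2 fold change 0.68 ± 0.15, adjusted p = 0.00159). Both were higher in every injured library than in any naive one. The nucleic acid sensors Ifi204 (1.14 ± 0.26) and Dhx58 (0.64 ± 0.17), Mx1 (1.15 ± 0.26), Irf7 (0.69 ± 0.21) and Cxcl10 (0.84 ± 0.26) also rose in WT DRG.

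Cmpk2 went the other way and was the 1 gene of the list that fell. It had 16.8, 18.5, 18 and 15.1 CPM in KO SNI and 29, 27.7, 25.4, 27.6 and 26.3 CPM in naive KO DRG (log2 fold change -0.64 ± 0.09, adjusted p = 2.51e-05). It had 18.3, 16, 17.2 and 16.4 CPM in WT SNI and 24, 23.7, 25, 28.8 and 19.7 CPM in naive WT DRG (log2 fold change -0.50 ± 0.09, adjusted p = 0.0003). Injured and naive libraries did not overlap in either genotype.

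The IFIT family, the ISG15 system and the GTPases had 0 called genes in either genotype in DRG. The GTPases were uneven among naive DRG libraries. Iigp1 had 29.2 CPM in library A4 and 3.30 to 6.43 CPM in the other naive KO libraries, and 21.5 CPM in A3 and 3.15 to 7.90 CPM in the other naive WT libraries. Igtp had 49.3 CPM in A4 against at most 14.9 CPM in the other naive KO libraries, and Gbp2 45.0 CPM against at most 16 CPM. These 2 libraries were high for most of the list: 35 of 44 genes in A4 and 40 of 44 in A3 lay above the naive WT mean. In injured DRG the range of Iigp1 was 4.64 to 8.32 CPM in KO and 5.50 to 7.22 CPM in WT libraries.

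The genotypes did not differ detectably in the DRG response to injury: 0 of 44 genes were called in either direction (background 0.0205% and 0.00513%), 0 had an unadjusted p under 0.05, and DESeq2 called 0. The 95% interval of the difference for Cxcl10, from -1.60 to 0.02 on the log2 scale, holds a smaller rise in KO. All 13 macrophage and microglia markers rose in injured DRG of both genotypes (medians 1.69 in KO and 1.41 in WT). Their sum was 413 to 549 CPM in KO SNI, 450 to 798 CPM in WT SNI, 123 to 201 CPM in naive KO and 173 to 315 CPM in naive WT DRG. Of 5 sensory neuron markers 3 fell, and of 5 satellite glia and astrocyte markers 3 rose and 1 fell, in either genotype. Their part in the DRG result was not tested.

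**Figure D3:**
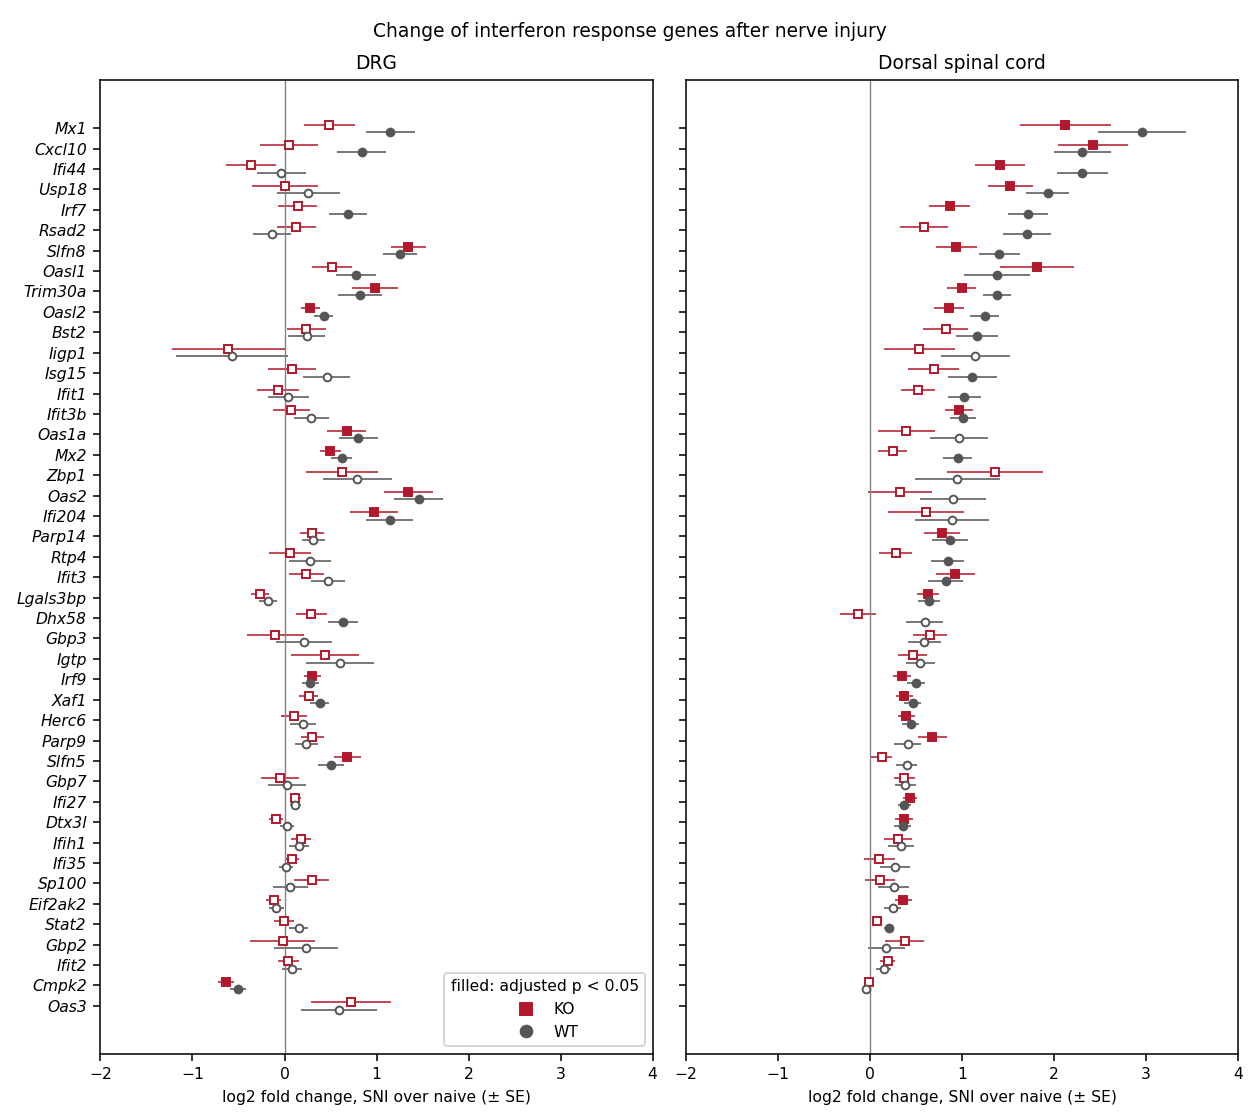
Log2 fold change of SNI over naive, with its SE, for each interferon response gene in DRG (left) and dorsal spinal cord (right), KO as squares and WT as circles, filled where the adjusted p was under 0.05. Genes are ordered by the change in WT cord. In cord nearly all points lie right of 0, while in DRG Slfn8 and Oas2 lead and Cmpk2 lies left of 0 in both genotypes.

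The tissues were then set against each other in 1 fit of all 36 libraries. In naive WT mice 42 of 44 genes were higher in DRG than in cord and 1 was lower, where 40.1% of all 20626 genes were higher and 36.6% lower. The median log2 difference of the list was 2.0, beside 0.06 over all genes. Ifi27, which encodes a small membrane protein of mitochondria and nucleus, had 143, 152, 144, 147 and 152 CPM in naive WT DRG and 23.6, 22.2, 20.3, 20.9 and 24.3 CPM in naive WT cord (log2 difference 2.73 ± 0.07, adjusted p = 1.45e-28). Ifi35 had 22.7, 27.3, 22.5, 23.6 and 22.8 CPM in DRG and 3.34, 3.07, 3.1, 2.66 and 2.83 CPM in cord (log2 difference 2.99 ± 0.11, adjusted p = 3.2e-23).

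The tissues lay far apart for both genes. Oasl2 had 33.1, 37.8, 32, 33.6 and 27.7 CPM in DRG and 4.18, 3.99, 2.69, 3.12 and 3.72 CPM in cord (log2 difference 3.21 ± 0.14, adjusted p = 4.58e-21). Xaf1, a gene linked to apoptosis, had 19.1, 22, 19.2, 17.8 and 21.6 CPM in DRG and 5.16, 4.68, 5.47, 5.2 and 4.98 CPM in cord (log2 difference 1.97 ± 0.09, adjusted p = 6.3e-20). Cmpk2 alone was lower in DRG (-0.60 ± 0.06), and Ifit3b was not called (0.08 ± 0.17). In the same comparison 5 of 5 endothelial, 5 of 5 blood, 5 of 6 neutrophil and 4 of 5 fibroblast markers were higher in DRG, and of 13 macrophage and microglia markers 4 were higher and 5 lower. Also higher in DRG were 5 of 5 sensory neuron, 3 of 4 Schwann cell, 3 of 4 B cell and 2 of 3 tested T cell markers. Of the fibroblast, Schwann cell and T cell lists 1 marker each was lower. Lower too were 3 of 3 oligodendrocyte, 5 of 5 spinal neuron and 4 of 5 satellite glia and astrocyte markers (1 higher). The endothelial markers summed to 64.9 to 88.2 CPM in naive WT DRG and 25.7 to 30.7 CPM in naive WT cord, and the fibroblast markers to 1732 to 3078 CPM in DRG and 232 to 546 CPM in cord. Their part in the tissue difference was not tested.

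Per length of exons, as CPM per kb of exon (RPKM), averaged over the 18 libraries of a tissue, Ifi27 was the highest of the list in both tissues, at 101 RPKM in DRG and 16.4 RPKM in cord. Lgals3bp (17.9 RPKM) and Ifi35 (13.3 RPKM) followed in DRG, and Cmpk2 (8.68 RPKM) and Lgals3bp (7.24 RPKM) in cord. The lowest were Oas3 (0.108 RPKM), Ifi44 (0.312 RPKM) and Mx1 (0.519 RPKM) in DRG, and Oas3 (0.0224 RPKM), Zbp1 (0.0889 RPKM) and Mx1 (0.119 RPKM) in cord. The list thus spanned a wide range within each tissue, with medians of 2.79 RPKM in DRG and 0.908 RPKM in cord.

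**Figure D4:**
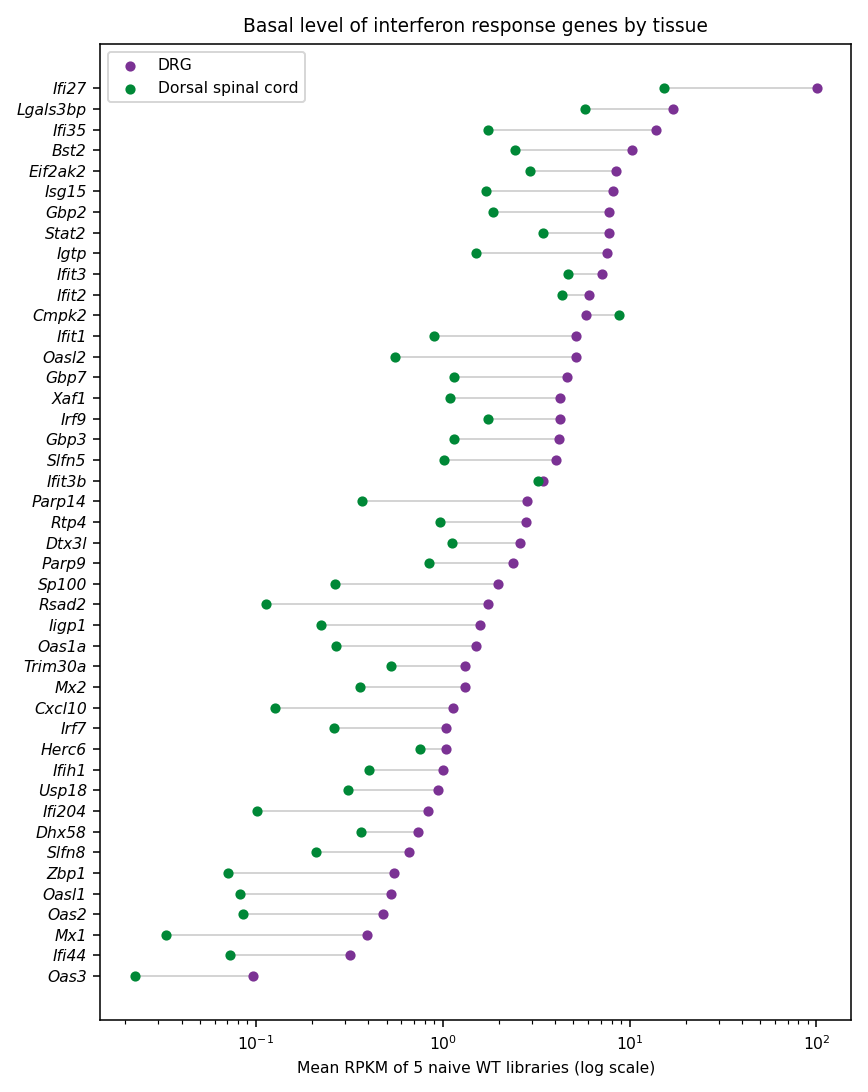
Mean RPKM of each interferon response gene in the 5 naive WT libraries of DRG and of dorsal spinal cord, on a log axis, ordered by the DRG level. The DRG point lies right of the cord point for all genes but Cmpk2 (5.83 RPKM in DRG and 8.80 RPKM in cord), and the 2 nearly coincide for Ifit3b.

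The log2 fold change of SNI over naive in WT mice was lower in DRG than in cord for 11 of 44 genes and higher for 0 (background 6.92% lower and 5.59% higher). For 10 of the 11 the change in cord was a rise, and for Cmpk2 the change in DRG was a fall. Ifi44 had 0.909, 2.02, 2.31 and 2.32 CPM in WT SNI and 1.54, 2.4, 1.39, 2.65 and 1.76 CPM in naive WT DRG, which overlap, beside the separated cord values above (difference of the log2 fold changes -2.35 ± 0.40, adjusted p = 6.14e-05). Rsad2 had 5.85, 6.34, 8.86 and 6.27 CPM in WT SNI and 7.07, 7.56, 5.4, 7.13 and 10.5 CPM in naive WT DRG. In cord it had 2.28, 1.06, 1.68 and 1.45 CPM in WT SNI and 0.4, 0.78, 0.41, 0.291 and 0.583 CPM in naive WT libraries (difference -1.85 ± 0.34, adjusted p = 0.000184). The cord groups of Rsad2 did not overlap and the DRG groups did.

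Lgals3bp, a secreted galectin ligand, had 45.3, 34, 52.5 and 38.9 CPM in WT SNI and 46.9, 51, 48.6, 55 and 41.7 CPM in naive WT DRG. In cord it had 25.8, 19.9, 30.5 and 26 CPM in WT SNI and 18.7, 18.1, 14.8, 16.4 and 13.8 CPM in naive WT libraries (difference -0.83 ± 0.16, adjusted p = 0.000269). For Cmpk2 the difference was -0.47 ± 0.10 (adjusted p = 0.000625), with -0.50 ± 0.09 in DRG and -0.04 ± 0.04 in cord. The others were Mx1, Usp18, Cxcl10, Irf7, Ifit1, Oasl2 and Ifit3b. The count of 11 was 6 without WT SNI cord library F5, and 7 without naive WT libraries A3, A7 or C5 or with only the WT libraries in the fit. The 13 macrophage and microglia markers, in the same test, gave 1 higher and 0 lower fold changes in DRG. Of 5 markers of satellite glia and astrocytes 2 were higher and 1 lower, and of 5 sensory neuron markers 1 was lower. Their part in the difference was not tested.

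A few of the genes were called lower in KO than in WT libraries, and 2 of them, Ifit3 and Ifit3b, in all 4 comparisons. In the injured tissues, though, 1 call of each of these 2 genes was lost when single libraries were left out. In naive DRG 4 of 44 genes were higher and 5 lower in KO than in WT (background 12.8% and 15.4%), a share below the background in both directions. In injured DRG 0 were higher and 3 lower (2.39% and 2.71%). In naive cord 1 was higher and 3 lower (9.79% and 9.94%), and in injured cord 0 were higher and 3 lower (2.95% and 3.31%). Most of the list lay below 0 in the injured tissues, called or not. In injured DRG 37 of 44 genes did (median log2 fold change -0.22, beside 0.009 over all genes), and in injured cord 38 of 43 (-0.20, beside -0.003). In naive DRG it was 28 of 44 (-0.09, beside -0.02) and in naive cord 17 of 43 (0.04, beside -0.006). The shift of the list as a whole was not tested. The naive and the injured comparisons use different libraries. The labels did not say whether DRG and cord libraries came from the same mice, so the comparisons in the 2 tissues cannot be taken as independent. Lower in both naive tissues were Ifit2, Ifit3 and Ifit3b, and lower in both injured tissues Ifit3 and Ifit3b.

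Ifit3 had 9.51, 7.41, 11.8 and 8.89 CPM in KO SNI and 13.4, 17.3, 16.4 and 21.5 CPM in WT SNI DRG (log2 fold change -0.86 ± 0.20, adjusted p = 0.0155). It had 7.95, 8.87, 7.49 and 6.56 CPM in KO SNI and 12.5, 10.7, 18.2 and 16.1 CPM in WT SNI cord (log2 fold change -0.90 ± 0.20, adjusted p = 0.0127), and 2.69, 3.49, 5.74, 4.23 and 4.05 CPM in naive KO and 10.6, 6.88, 6.34, 9.36 and 7.4 CPM in naive WT cord (log2 fold change -1.01 ± 0.20, adjusted p = 0.00231). KO and WT libraries did not overlap in these 3 comparisons, and the injured DRG call was lost without E4 or F3 (adjusted p = 0.0561 and 0.056). The injured cord call was lost with the number in the column names as a replicate block (-0.88, adjusted p = 0.0965). In naive DRG the log2 difference was -0.62 ± 0.18 (adjusted p = 0.0192).

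Ifit3b showed the same order. It had 4.49, 3.42, 5.86 and 3.65 CPM in KO SNI and 7.94, 7.05, 7.76 and 10.5 CPM in WT SNI DRG (log2 fold change -0.93 ± 0.21, adjusted p = 0.0114), and 5.16, 5.37, 3.09, 4.15 and 3.38 CPM in naive KO and 5.78, 8, 6.65, 8.46 and 5.36 CPM in naive WT DRG (log2 fold change -0.71 ± 0.19, adjusted p = 0.0114). In cord it had 3.94, 4.47, 3.92, 4.1 and 5.2 CPM in naive KO and 6.85, 6.88, 5.66, 6.15 and 6.91 CPM in naive WT libraries (log2 fold change -0.58 ± 0.15, adjusted p = 0.00895). In injured cord it had 9.07, 8.41, 8.77 and 7.74 CPM in KO SNI and 11.6, 8.56, 17.9 and 14.5 CPM in WT SNI libraries (log2 fold change -0.63 ± 0.15, adjusted p = 0.0132). KO libraries lay below WT libraries in naive cord and injured DRG, the groups met at their edges in naive DRG, and in injured cord WT library E7 lay among the KO ones. The injured cord call was lost without F5 (adjusted p = 0.0557), without F8 (0.0527) and with only the libraries compared in the fit (0.133).

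Ifit3 shares 51.2% of its 50-base exon words with other genes, chiefly Ifit3b, and Ifit3b 45%, so the split of reads between them rests on the authors' estimation. Their sum avoids that split. It was 10.8 to 17.6 CPM in KO SNI and 21.4 to 32 CPM in WT SNI DRG, 9.08 to 16.6 CPM in naive KO and 16.5 to 23.7 CPM in naive WT DRG, 14.3 to 17.3 CPM in KO SNI and 19.3 to 36.1 CPM in WT SNI cord, and 6.64 to 9.65 CPM in naive KO and 12 to 17.5 CPM in naive WT cord. The KO range lay below the WT range in all but naive DRG, where they touched.

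Ifit2 had 13, 13.2, 13.4, 13.3 and 13.4 CPM in naive KO and 15.4, 15, 20.2, 17.8 and 16.5 CPM in naive WT cord (log2 fold change -0.36 ± 0.08, adjusted p = 0.00222), with no overlap. It had 16.2, 14.8, 14.7 and 15.1 CPM in KO SNI and 19, 15.6, 21.3 and 19.6 CPM in WT SNI cord (log2 fold change -0.31 ± 0.09, adjusted p = 0.0251), where the lowest WT library lay among the KO ones. That call was lost when any 1 of 6 of the 8 libraries was left out, E5, E8, F5, F6, F7 or F8 (adjusted p = 0.0539 to 0.116). In naive DRG it differed by -0.28 ± 0.10 (adjusted p = 0.0466). The 3 genes are neighbours with Ifit1 at chr19:34550694-34650009, a stretch of 99.3 kb. Ifit1 was called in none of the KO comparisons (log2 fold changes -0.47 to 0.03). It lay below 0 in both DRG comparisons and in injured cord, where its unadjusted p was under 0.05. In naive cord its 95% interval ran from -0.33 to 0.38. Of the other genes tested within 1 Mb of the stretch, 4 were lower and 1 higher in KO among 15 in naive DRG (background 15.4% and 12.8%). In injured DRG 1 of the 15 was lower and 1 higher (2.71% and 2.39%). In cord 0 of 14 were called in naive libraries (9.94% and 9.79%) and 0 of 14 in injured ones (3.31% and 2.95%).

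Cxcl10 gave the largest KO difference. It had 1.27, 0.953, 1.07 and 1.6 CPM in KO SNI and 4.23, 4.91, 4.82 and 4.32 CPM in WT SNI DRG (log2 fold change -1.89 ± 0.30, adjusted p = 0.000692). It had 0.901, 2.04, 1.25, 0.812 and 1.05 CPM in naive KO and 1.12, 4.08, 2.47, 2.61 and 2.56 CPM in naive WT DRG (log2 fold change -1.10 ± 0.28, adjusted p = 0.00976). The injured groups were far apart, whereas naive WT library A1 lay among the naive KO ones. In cord its differences were -0.89 ± 0.29 after SNI and -1.0 ± 0.43 in naive libraries, neither called (adjusted p = 0.0652 and 0.0988). The gene has an antisense partner over its exons, Art3, and the strand setting of the counting was not given in the sources used here.

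Genes higher in KO were fewer. Stat2 had 68.1, 63.2, 58, 58 and 55.5 CPM in naive KO and 44.9, 44.1, 50.7, 52.1 and 37.5 CPM in naive WT DRG (log2 fold change 0.38 ± 0.10, adjusted p = 0.0109). Oasl2 had 47.1, 47.9, 38.2, 41.8 and 38.9 CPM in naive KO DRG, above the naive WT values given above (0.36 ± 0.10, adjusted p = 0.0129). The groups did not overlap for either gene, and Eif2ak2 (0.22 ± 0.08) and Lgals3bp (0.31 ± 0.09) were called too. Without A2 and A4 none of the 4 was called. Dhx58, which tunes the RNA sensors, had 2.07, 1.86, 2.19, 1.92 and 1.2 CPM in naive KO and 1.51, 0.872, 1, 1.21 and 1.35 CPM in naive WT cord (log2 fold change 0.63 ± 0.19, adjusted p = 0.0226). Its groups overlapped through KO library C6, and it was not called without A6, A7 or B5 (0.0501 to 0.0693).

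The counts of the KO comparisons moved with single libraries. In naive DRG the number of genes lower in KO was 10 without A2 and A4, 11 without A4, 10 without B1, and 3 without A1, B4, C1 or C2, and the number higher was 2 without A2 or C1. In injured cord the number lower was 8 without E7 and 1 without F5 or F8. In naive cord the number higher was 0 without A6 or A7 and 2 without B7, and in injured DRG it was 1 without F1.

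Cell markers moved in the same naive DRG comparison. Of the markers tested, 5 of 5 blood, 6 of 6 neutrophil and 8 of 13 macrophage and microglia, 4 of 5 endothelial and 3 of 5 fibroblast markers were lower in KO, and of 5 satellite glia and astrocyte markers 3 were higher and 1 lower. The neutrophil markers summed to 17.6 to 61.1 CPM in naive KO and 66.1 to 380 CPM in naive WT DRG. In injured DRG 0 of 5 blood and 0 of 6 neutrophil markers were called. All of them lay below 0 in KO, with median log2 fold changes of -0.56 (blood) and -0.96 (neutrophil). Of 13 macrophage and microglia markers 1 was called lower in KO, and all 13 lay below 0 (median -0.40). Also called lower were 1 of 5 endothelial, 1 of 4 B cell and 1 of 2 tested T cell markers. Of 5 satellite glia and astrocyte markers 2 were called higher. In naive cord 4 of 5 blood markers and 4 of 13 macrophage and microglia markers were lower and 1 of 13 was higher in KO, while in injured cord 0 of 5 blood markers were called and of the 13 macrophage and microglia markers 2 were lower (Tyrobp and C1qb) and 1 higher (P2ry12) in KO. Their part in the differences of the interferon genes was not tested.

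**Figure D5:**
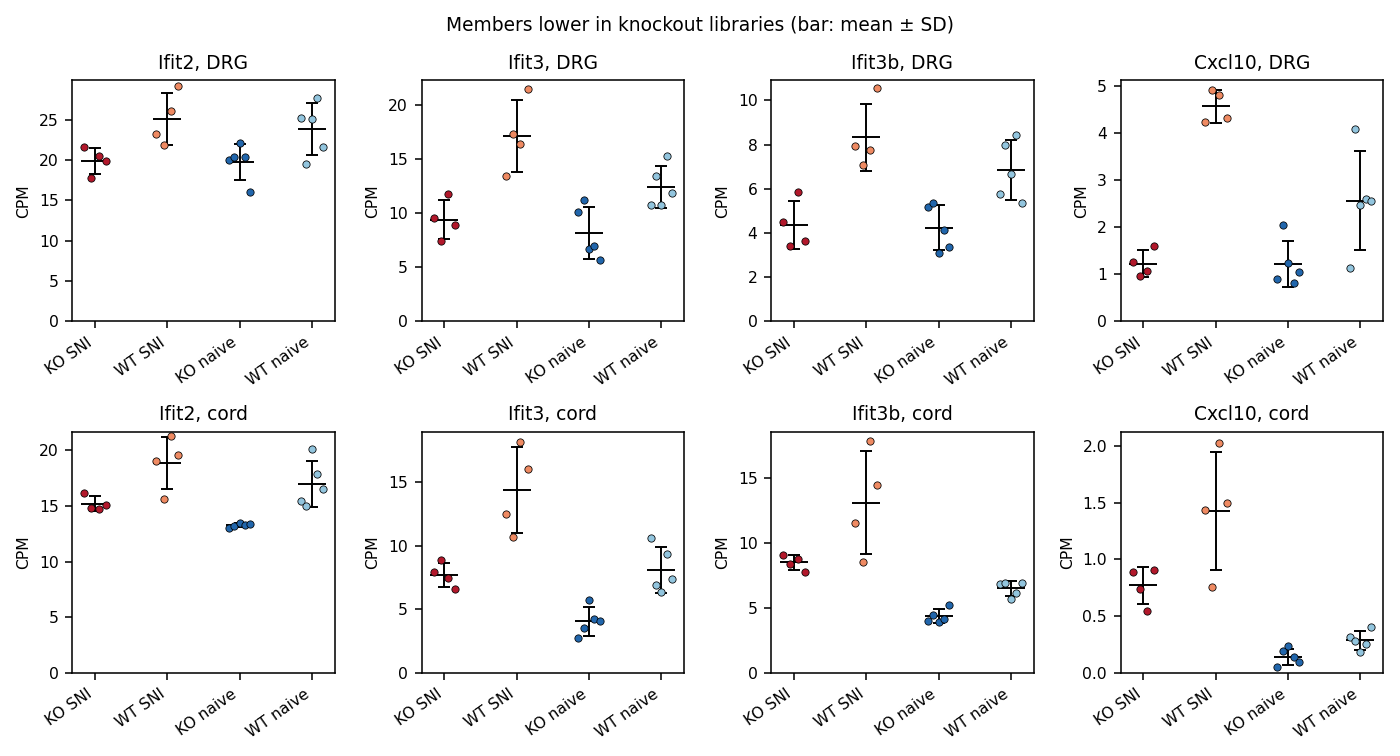
CPM of Ifit2, Ifit3, Ifit3b and Cxcl10 in each library of DRG (top) and dorsal spinal cord (bottom), ordered KO SNI, WT SNI, KO naive and WT naive, with bars for the mean ± SD (n = 4 for SNI and 5 for naive groups). The KO mean lies below the WT mean of the same state in all 8 panels, and Cxcl10 separates the injured DRG groups, with 0.953 to 1.60 CPM in KO and 4.23 to 4.91 CPM in WT libraries.

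The rest of the pathway was read from lists that hold no member. Interferon ligands were all but unread: over 36 libraries Ifnk had 6 reads, Ifng 5, Ifnb1 3 and Ifna2 2, with at most 1 in any library, and the other 6 had 0. None was tested, and a count of 0 to 6 does not show that the ligands were absent. Of 6 receptor genes, 3 rose in WT DRG after SNI, Il10rb, Ifnar2 and Ifngr2 (0.17 to 0.36), and 1 in WT cord, Ifngr1 (0.28 ± 0.06).

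Among the signal transducers, Irf8, a factor of myeloid cells, rose by 1.22 ± 0.11 in KO and 1.17 ± 0.10 in WT cord. Irf5 rose by 0.96 ± 0.11 in KO and 0.80 ± 0.11 in WT cord. Of 11 inducing sensors and adaptors, 4 rose in WT cord, led by Tlr7, a receptor for single-stranded RNA (1.23 ± 0.14), and Tmem173, or STING (0.89 ± 0.11). In WT DRG they rose by 1.67 ± 0.18 and 1.04 ± 0.11. Of 8 restraining genes 2 rose in WT cord, Ptpn6 (1.06 ± 0.13) and Socs3 (0.93 ± 0.20).

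Of 39 other interferon-stimulated genes tested in each tissue, 10 rose in KO DRG (25.6%, background 15.1%), 10 in WT DRG (25.6%, background 12.6%), 7 in KO cord (17.9%, background 3.79%) and 11 in WT cord (28.2%, background 2.61%) after SNI, and 0 fell. Slfn9, a relative of Slfn8, rose most. Its mean was 27.9 ± 1.71 CPM in KO SNI and 2.32 ± 0.25 CPM in naive KO DRG, and 24.7 ± 2.45 CPM in WT SNI and 2.93 ± 0.52 CPM in naive WT DRG (SD, n = 4 and 5). These gave log2 fold changes of 3.62 ± 0.11 in KO and 3.08 ± 0.11 in WT DRG.

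Between genotypes, Myd88 and Gbp6 stood out among these lists. Myd88, the adaptor of most Toll-like receptors, was lower in KO in all 4 comparisons, by -0.55 ± 0.11 in injured DRG, -0.67 ± 0.10 in naive DRG, -0.54 ± 0.13 in injured cord and -0.57 ± 0.12 in naive cord. Gbp6, an interferon-induced GTPase, averaged 0.841 ± 0.240 CPM in KO SNI and 3.15 ± 0.88 CPM in WT SNI cord, and 0.770 ± 0.297 CPM in naive KO and 2.36 ± 0.87 CPM in naive WT cord. It was lower in KO by -1.90 ± 0.34 in injured cord, -1.61 ± 0.32 in naive cord and -1.76 ± 0.48 in injured DRG (adjusted p = 0.00157, 0.00159 and 0.0418), and was not called in naive DRG.

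Genes with and without the ISRE core were among those that rose. In WT cord 10 of 18 tested genes with the core and 9 of 13 without it rose after SNI, with medians of 0.89 and 0.46, and 6 of the 12 genes with no promoter in the table rose. In KO cord 6 of 18 with the core and 9 of 13 without it rose. Cmpk2 had no match in its window, and neither had Irf7 or Ifi44, which rose in cord.

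Some values carry a limit of the counting. Of the 44 genes, 9 share more than 10% of their 50-base exon words with another gene, among them Oas1a (57.6%, with Oas1g), Slfn8 (14.6%) and Ifi204 (20%), and 11 overlap the exons of a gene on the other strand, Irf7, Usp18, Dhx58 and Cxcl10 included. Libraries were made with a stranded kit. Whether the counting used the strand was not given in the sources used here.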

How the data were processed

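The authors deposited RSEM expected counts (estimated reads per gene, not whole numbers) and a normalised signal table, each column of which was its count column times 1 TMM factor. The submitters' processing notes name HISAT2, RSEM, FastQC 0.11.5 and build GRCm38, and the sources used here give neither their order nor the annotation. Libraries were stranded mRNA libraries, per the labels' protocols. The deposited column of library E1 (unit other) had decimal commas, which were read as points, and 1 lost cell was restored from the normalised table.

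Expected counts were rounded and tested with edgeR 4.0.16 in R 4.3.3 (TMM, filterByExpr, robust quasi-likelihood), in 1 fit per tissue (18 libraries, 14 residual degrees of freedom) and 1 over both. P-values were adjusted over all genes of a fit (Benjamini-Hochberg), and 0.05 was the threshold for a call. Values after ± are standard errors for log2 fold changes and SDs for CPM. The code was tested on simulated data. Alternatives were DESeq2 1.42.0, other factors, no filter, only the libraries compared, libraries left out and replicate blocks. Full values were given for the 4 called members of a comparison with the lowest adjusted p, and genes of the pathway lists were named if among the 3 lowest of their list. The members and lists were chosen with earlier results of these data known. Between libraries of 1 group the chi-square per gene averaged at least 2.54, so none was counted as a copy. Library names are those of the titles, and RPKM used the exon lengths of GENCODE M21. The level of the targeted gene and the counts over the signal transducers are not reported here.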

Additional observations from a re-analysis of the deposited data

Results flagged for a closer look

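In naive WT DRG, library A3 stood away from the other 4 for Ifi35, at 27.3 CPM. In WT SNI DRG, library F1 stood away from the other 3 for Rsad2, at 8.86 CPM. These were 2 of 77 groups so examined (Dixon's criterion, which chance alone passes in about 1 in 20 groups), fewer than chance gives.

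The response to injury in WT mice differed between DRG and cord for 11 genes, tested as a difference of log2 fold changes (DRG minus cord): Ifi44 (-2.35), Rsad2 (-1.85), Mx1 (-1.82), Usp18 (-1.68), Cxcl10 (-1.48), Irf7 (-1.03), Ifit1 (-0.99), Oasl2 (-0.83), Lgals3bp (-0.83), Ifit3b (-0.73) and Cmpk2 (-0.47). Of these, Mx1 and Cxcl10 passed the filter in cord through the injured libraries alone, and each of the 11 started from another level in the 2 tissues except Ifit3b. The part of the naive level in these differences was not tested.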

How the results depend on the processing

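Among the counts of genes called, 118 of 126 values under another tool, factor, filter, set of libraries or block stayed within 1.5 times the reported count, and none of the results changed direction. Genes higher in injured KO DRG numbered 19 without A2 and A4. Genes lower there numbered 2 with DESeq2, with RLE factors, with no filter and with only the libraries compared. In naive DRG without A2 and A4, 0 were higher and 10 lower in KO. The 11 lower DRG fold changes were 7 with only the libraries compared. The causes were not tested.

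Leaving out 1 library at a time gave 20 to 27 genes higher in injured WT cord, 13 to 21 in injured KO cord, 13 to 17 in injured WT DRG (1 to 2 lower) and 6 to 14 in injured KO DRG (1 to 2 lower). It gave 2 to 4 higher and 3 to 11 lower in KO in naive DRG, 0 to 1 higher and 2 to 3 lower in injured DRG, 0 to 2 higher and 3 to 4 lower in naive cord, 1 to 8 lower in injured cord, and 6 to 13 lower DRG fold changes. Calls of named genes were lost in 13 of 384 such fits: Ifit2 in injured KO cord without E5, E8, F5, F6, F7 or F8, Ifit3b there without F5 or F8, Ifit3 in injured KO DRG without E4 or F3, and Dhx58 as given above. Ifit3b in injured KO cord was not called with only the libraries compared (-0.63, adjusted p = 0.133), nor Stat2 and Oasl2 in naive KO DRG without A2 and A4 (0.31, adjusted p = 0.069, and 0.26, adjusted p = 0.0894).

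Groups shared title letters and numbers in the column names. Whether the numbers pair KO with WT libraries could not be settled. For libraries of the same number, deviations correlated above 0.1 in 1 of 5 naive and 2 of 4 injured DRG pairs. In cord they did in 1 of 5 naive and 0 of 4 injured pairs. Libraries of different numbers were not compared. With either number as a replicate block, the KO comparison of naive DRG gave 7 lower and 4 higher. The column number, a block chosen after seeing the data, lost Ifit3 in injured KO cord (-0.88, adjusted p = 0.0965). DRG and cord libraries of the same number correlated above 0.1 in 14 of 18 pairs, and with that number as a block the tissue counts stayed at 42 higher and 1 lower, and 11 lower DRG fold changes. Depth limits the genes under about 0.44 CPM in cord, where Oas3 could not be tested.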
